A study of Homo sapiens with 4 samples.

Results

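Among the 12864 new methylation peaks of HEK293 cells with the wild type Ab-3A3L construct, 875 were placed wholly upstream of a gene's start site and left the start site itself outside the peak. A peak was counted here when its near edge lay 1 to 1000 bp upstream, by the strand of the gene, of the nearest start site of a protein-coding gene on chromosomes 1 to 22. It also had to contain no coding start site, and no other coding start was allowed within 1000 bp of that site. The start site is that of the canonical transcript in GENCODE release 44 on the hg19 build. Starts of other transcripts of a gene could therefore lie in a peak. Of the 12667 new peaks on these chromosomes, the 875 upstream-only peaks made up 6.91% (95% exact binomial interval 6.47% to 7.36%). Distance and side are what the peaks were selected on, so they are given as a description.

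The peaks come from MBD-seq, which sequences the methylated part of fragmented genomic DNA, captured with GST-tagged MBD2, a protein that binds methylated CpGs. HEK293, a human embryonic kidney cell line, had received the dCas9-SunTag scaffold (dCS), an sgRNA against ISG15 and Ab-3A3L, which is an antibody fragment that docks on the SunTag, fused to the catalytic part of DNMT3A and the C-terminal part of DNMT3L. The transfection was transient, the cells carrying all components were sorted after 3 days, and untreated HEK293 cells were the control against which the authors called a peak new. The study holds 4 conditions with 1 library each, and the libraries with mutated DNMT3A were not analysed here. A list of peaks holds no expression, so the labelled cell line could not be checked. With 1 library and no replicates, the kinds of peaks could not be compared against replicate spread, no test was made, and the intervals given cover counting error only.

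DNMT3A methylates cytosines of CpG sites that were unmethylated before, and DNMT3L, which is inactive by itself, stimulates it. CpG islands (CGIs) are CpG-rich stretches that surround the start sites of most housekeeping and many developmental genes, and most of them are unmethylated in normal cells. Transcription from such islands often starts at several positions, and in the upstream part it frequently runs away from the gene and gives a long non-coding RNA (lncRNA).

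The sequences at the summits of a pair of these peaks are shown to give an impression of the CpG content of these peaks, with each CpG in capitals. They cover 75 bp on either side of the summit in hg19 and run 5′ to 3′ on the strand of the gene. FOXK2 encodes a forkhead transcription factor and TNRC6C a scaffold of microRNA silencing complexes.
FOXK2, chr17:80477100-80477250, plus strand: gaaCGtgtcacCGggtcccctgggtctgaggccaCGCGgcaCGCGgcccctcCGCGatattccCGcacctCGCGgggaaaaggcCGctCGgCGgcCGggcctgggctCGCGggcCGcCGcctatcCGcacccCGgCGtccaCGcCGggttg
TNRC6C, chr17:75954030-75954180, plus strand: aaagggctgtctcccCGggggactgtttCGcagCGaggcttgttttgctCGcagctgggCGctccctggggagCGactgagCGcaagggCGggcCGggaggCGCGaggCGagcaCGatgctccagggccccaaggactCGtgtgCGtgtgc
The FOXK2 stretch holds 24 CpGs in 151 bp and the TNRC6C stretch 15. Their whole peaks hold 13.5 and 11.99 CpGs per 100 bp. Both lie above the upper quartile of 11.3 over the 875 peaks, so these examples are denser in CpGs than most. Both summits lie between annotated transcripts.

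The stretch between the peak and the start site is the part next to the gene without an upstream peak, and it is shown for 4 genes in which it overlaps no annotated exon. PREX1 encodes an exchange factor of Rac GTPases, RILPL1 a relative of the Rab effector RILP and BICD2 an adaptor of the dynein motor.
PREX1, chr20:47444537-47444622, minus strand: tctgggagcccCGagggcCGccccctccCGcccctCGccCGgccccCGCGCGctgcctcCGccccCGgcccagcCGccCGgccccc
RILPL1, chr12:124018267-124018374, minus strand: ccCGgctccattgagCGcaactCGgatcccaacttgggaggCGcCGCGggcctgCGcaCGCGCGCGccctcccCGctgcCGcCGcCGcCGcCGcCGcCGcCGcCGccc
TNRC6C, chr17:75954606-75954784, plus strand: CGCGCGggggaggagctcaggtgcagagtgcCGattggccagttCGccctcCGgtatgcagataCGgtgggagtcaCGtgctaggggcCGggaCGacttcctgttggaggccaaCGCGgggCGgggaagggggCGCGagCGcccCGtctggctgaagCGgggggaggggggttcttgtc
BICD2, chr9:95527116-95527302, minus strand: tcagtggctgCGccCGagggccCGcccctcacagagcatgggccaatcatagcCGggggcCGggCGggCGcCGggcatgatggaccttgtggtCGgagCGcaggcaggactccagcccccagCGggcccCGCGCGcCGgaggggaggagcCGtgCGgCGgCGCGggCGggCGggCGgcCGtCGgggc
These stretches hold 12 CpGs in 86 bp, 21 in 108 bp, 18 in 179 bp and 25 in 187 bp. Per 100 bp this is 14.0 at PREX1, 19.4 at RILPL1, 10.1 at TNRC6C and 13.4 at BICD2. The peaks next to them held 12.3, 11.7, 11.99 and 9.97 CpGs per 100 bp, so that the part outside the peak was denser in CpGs at PREX1, RILPL1 and BICD2, and less dense at TNRC6C.

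The 875 upstream-only peaks lie at 867 start sites, which is 5.27% of the 16455 start sites that have no other coding start within 1000 bp. By the same rule, 28.3% of these start sites (4656) lay inside a new peak, here called a spanning peak, and 13.4% (2201) had a peak only downstream, as the mirror image of the upstream rule. Any of the 3 kinds was found at 41.9% of the start sites (6902), and of those 12.6% had an upstream-only peak. There were 2249 downstream-only peaks, so that 28.0% of the peaks on either side alone lay upstream (95% exact binomial interval 26.4% to 29.6%). If the summit alone sets the side and a peak may contain the start, 2079 peaks lie upstream, with a share of 28.1%.

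Upstream-only peaks ended at a median of 281 bp from the start site, with quartiles of 150 and 474.5 bp. Their summits lay a median of 521 bp upstream and their far edges 738 bp. For the downstream-only peaks the near edge stood at a median of 190 bp and the summit at 459 bp. The upstream share was lowest close to the start. In the first 100 bp there were 137 near edges upstream against 724 downstream, an upstream share of 15.9% (13.5% to 18.5%), while from 301 to 400 bp there were 128 against 192, or 40.0% (34.6% to 45.6%). Beyond that distance the upstream share was 31.6% from 401 to 500 bp, 31.1% from 501 to 750 bp and 33.2% from 751 to 1000 bp.

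**Figure D1:**
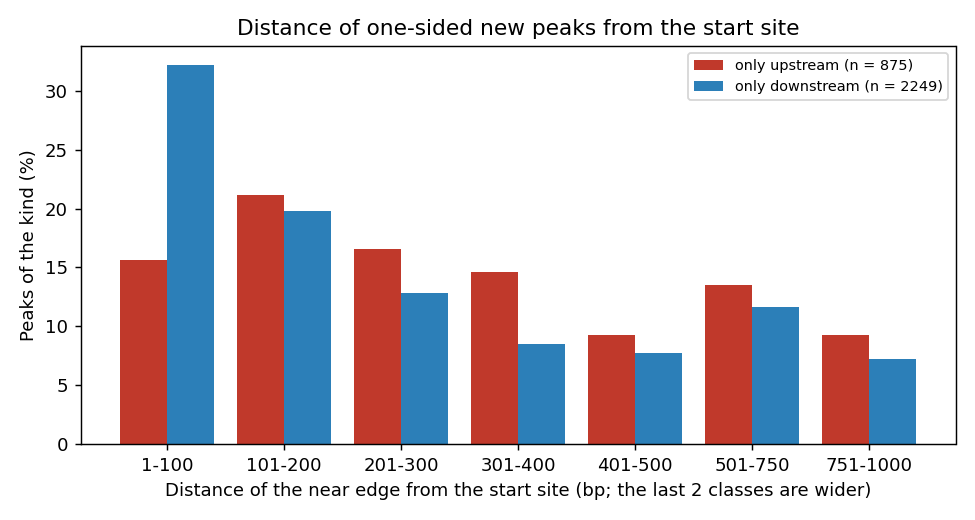
Percent of the upstream-only (red) and downstream-only (blue) new peaks whose near edge falls in each class of distance from the start site in bp. The class of 1 to 100 bp holds 15.7% of the upstream-only and 32.2% of the downstream-only peaks.

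The closest peak ended 1 bp from the start site of CREBBP, a histone acetyltransferase, with a fold of 3.59. MT2A, a metallothionein gene, and SNAI1, a repressor of epithelial genes, each had a peak that ended 2 bp before the start. At MT2A the fold was 9.93 over a width of 423 bp and at SNAI1 it was 6.29 over 515 bp. All 3 start sites lie in a CGI, so that these peaks stopped within the island. At the other end, the peaks of EHBP1L1, IL12B and C6orf62 lay 990, 993 and 997 bp away, and the next one belongs to ENSG00000288570 at 998 bp. Just outside the limit were the peaks of LNPEP at 1007 bp, KREMEN2 at 1009 bp and URM1 at 1010 bp.

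The fold is the authors' enrichment of wild type fragments at the summit over the background expected from untreated cells. Its median over the 875 peaks was 6.83, with quartiles of 5.23 and 8.69 and a range from 1.81 to 24.8. A fold of at least 10 was reached by 135 peaks, or 15.4%, against 39.5% of spanning and 18.0% of downstream-only peaks. The spanning peaks had a median fold of 9.05 and the downstream-only peaks one of 7.12. Width goes with this order, as the median was 396 bp upstream, 432 bp downstream and 718 bp for spanning peaks. A wide peak near a start site is more likely to contain it, so the rule itself sets part of that difference.

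Within classes of width, the upstream-only and the spanning peaks came closer. From 253 to 300 bp the median fold was 5.86 upstream, 6.12 for spanning and 5.90 for downstream-only peaks. From 401 to 600 bp the medians were 7.37, 7.75 and 7.45. From 601 to 1000 bp they were 8.19, 9.45 and 8.91, and above 1000 bp 11.2, 11.6 and 10.5. The class above 1000 bp holds only 33 upstream-only peaks, against 1230 spanning and 130 downstream-only peaks. In each of these classes the upstream median was below the spanning one, but the 2 were closer than the 6.83 and 9.05 of all peaks.

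Fold and −log10 p together give back the number of fragments at the summit. It had a median of 16 upstream, with a range from 6 to 75, and was 18 for spanning and 16 for downstream-only peaks. The background, in fragments expected at the summit, had a median of 1.11 upstream against 0.702 for spanning and 0.843 for downstream-only peaks. The lowest rate in the list, 0.611, applied to 27.2% of the upstream-only peaks (24.3% to 30.3%), to 36.5% of spanning and to 33.5% of downstream-only peaks. A rate of at least 3 was found at 22.2% (19.5% to 25.1%), 10.6% and 16.5%. A raised background was thus listed for a larger share of the upstream-only peaks, and the fold was lower where it was higher (Spearman rho −0.72 and Pearson r −0.55 over 875 peaks of the same library, where the rate is part of the fold). PCSK6, which encodes a proprotein convertase, had the most fragments, 75, over a rate of 37.5, and its fold was 1.98.

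The highest fold, 24.8, was listed upstream of SRGAP1, a GTPase activating protein of SLIT-ROBO signaling, on chromosome 12 from 64237309 to 64238435. The peak is 1127 bp wide, holds 129 CpGs, ends 45 bp before the start site and has 39 fragments at the summit. The summit lies in a non-coding exon part of another SRGAP1 transcript. LIFR, the receptor of leukemia inhibitory factor, followed with a fold of 20.7 on chromosome 5 from 38556892 to 38557509, where the peak also covers the start of LIFR-AS1 on the opposite strand. SCAF11, a splicing-related factor, had a fold of 19.2, with 30 fragments 1391 bp upstream of the start, and a further new peak covered that start. FOXK2 had 16.8 and 91 CpGs, or 13.5 per 100 bp, in a peak that ended 3 bp before the start. These genes, with FAM72A, also had the highest −log10 q, which was 50.8 at SRGAP1, 40.5 at LIFR, 39.0 at FAM72A, 35.7 at SCAF11 and 31.7 at FOXK2.

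The other genes among the 10 highest were of varied function. PFKFB3, an enzyme that sets the level of the glycolysis activator fructose-2,6-bisphosphate, had a fold of 16.8 in a peak 928 bp upstream, and SULF2, a heparan sulfate sulfatase, had 16.4. The start sites of both lay inside a further new peak. At PCGF2, a Polycomb ring finger protein, the fold was 16.0 over 1415 bp with 131 CpGs, and at FAM120A it was 16.2. FAM72A with 20.5 and FAM72D with 16.8 complete the list. These genes are near-identical copies on chromosome 1, so reads of one copy can be placed on another, and both values are uncertain.

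Among the widest peaks the fold varied. Behind FAM72D with 2405 bp came IGF2, an imprinted growth factor gene, with 1524 bp, 150 CpGs and a fold of 5.46 over a background rate of 4.86. The peak upstream of PDGFA, a platelet-derived growth factor chain, spanned 1426 bp with a fold of 2.68 and a rate of 8.33. KCND3, a potassium channel gene, had 1450 bp and a fold of 10.3, and KAT6B, a histone acetyltransferase, had 1436 bp and 13.0, both with rates under 1. HIVEP2 (145 CpGs, fold 9.93), RNF152 (144 CpGs, fold 6.28) and KLF12 (139 CpGs, fold 7.67) were next by CpG number. Over all 875 peaks, which share a library, the Spearman rho of fold with width was 0.37, with the number of CpGs 0.30, with CpGs per 100 bp −0.02 and with the distance to the start 0.00.

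Almost all upstream-only peaks overlapped a CGI as rebuilt here from the sequence. This set holds 48199 islands without repeat masking, and an overlap of 1 bp counted. The paper took its islands from the UCSC browser, so the shares here cannot be set beside those of the paper. Of the 875 peaks, 849 overlapped a rebuilt island, or 97.0% (95.7% to 98.1%), as did 98.9% of spanning and 97.7% of downstream-only peaks. In 774 cases, or 88.5%, the same island also contained the start site. Of the 67 peaks whose start site was in no island, 58 still lay in one, or 86.6%, and SRGAP1, RNF152, ZFP69B, KCNJ5 and SLCO4C1 are among them. Only 26 peaks were outside islands. The highest fold of these was 10.9, upstream of ANGPTL2, an angiopoietin-like secreted protein, with 5.69 CpGs per 100 bp.

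The islands reached far upstream at these genes. The island at the start site extended a median of 756 bp upstream (quartiles 524 and 1087 bp, n = 808), against 321 bp at spanning and 376 bp at downstream-only peaks. Downstream of the start the medians were 680, 596 and 774 bp. The island reached farther upstream than downstream in 433 of 808 cases, or 53.6% (50.1% to 57.1%), against 23.9% for spanning and 17.2% for downstream-only peaks. The room that an island leaves for a peak on each side was not taken out of this comparison. The far edge of a peak and the upstream reach of the island at its start site were correlated over the 808 peaks (Spearman rho 0.66, Pearson r 0.41). In 774 of them the peak overlaps that same island, which must then reach its near edge. Part of this correlation is therefore built in.

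Seen from all start sites, the share with an upstream-only peak went up with this reach. It was 0.605% of 3140 start sites with an island reaching 0 to 199 bp upstream, 2.69% at 200 to 399 bp and 9.90% at 400 to 599 bp. It was 17.6% at 600 to 799 bp, 29.6% (26.3% to 33.1%) at 800 to 1199 bp and 26.5% (23.0% to 30.3%) of 581 start sites at 1200 bp and more. The intervals of the last 2 classes overlap. The peak must lie wholly upstream and the narrowest is 253 bp wide, so a short reach leaves little room for one inside the island. The rule thus sets part of the rise. The share with a downstream-only peak moved much less, from 16.0% to at most 24.4%. These classes are by upstream reach, so this is no mirror comparison, which would need the downstream reach. Start sites without an island had an upstream-only peak in 1.08% of 6094 cases.

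**Figure D2:**
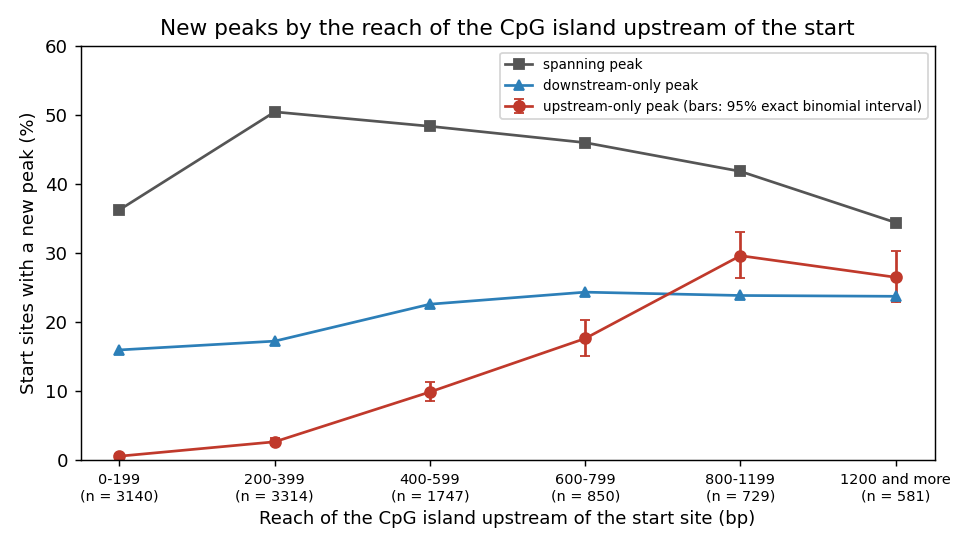
Percent of start sites with an upstream-only (red, with 95% exact binomial intervals), spanning (grey) or downstream-only (blue) new peak, by how far the CpG island at the start site reaches upstream in bp. The red line rises from 0.605% to 29.6% and ends at 26.5%, while the blue line stays between 16.0% and 24.4%. The classes are by upstream reach for every kind of peak, and a short reach leaves little room for an upstream-only peak.

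Whether the CpGs thinned out between the peak and the start site varied with the distance of the peak. The median density in upstream-only peaks was 9.71 CpGs per 100 bp (quartiles 8.12 and 11.3), and 10.8 in spanning and 10.3 in downstream-only peaks. The stretch between peak and start site held a median of 10.2 in the 796 cases where it was at least 50 bp long. In 447 of them, or 56.2% (52.6% to 59.6%), it was at least as dense as the peak, and for downstream-only peaks this was the case in 54.1%. The median density of the stretch was 12.3 for near edges within 100 bp, 13.1 at 101 to 200 bp and 6.63 at 751 to 1000 bp, so it was lower for the most distant peaks. Not all stretches were free of new peaks. At 180 start sites a spanning peak can cover the end next to the start, and 8 start sites had 2 upstream-only peaks. These cases were not taken out. The median near edge and density of the stretch were 451 bp and 9.07 at 162 start sites with a spanning and no downstream-only peak. They were 219 bp and 9.18 at 372 with neither, and 208.5 bp and 12.1 at 315 with a downstream-only but no spanning peak.

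Averages over start sites were taken in bins of 50 bp. At the 687 start sites with an upstream-only and no spanning peak, the CpG density was highest in the 50 bp before the start, with 12.1 per 100 bp. The same bin was highest at start sites with a spanning peak alone (12.9) and with a downstream-only peak alone (11.2). New peaks covered 66.6% of these start sites 400 bp upstream, 4.35% in the first 50 bp of the gene and 33.0% at 450 bp downstream. The dip at the start follows from the selection, which also sets part of the rise behind it. At 500 bp upstream the CpG density was 8.47, against 4.30 at the 4167 start sites with a spanning peak alone. New peaks covered 61.0% and 16.5% of the start sites of these groups there. The selection thus sets part of this difference in density too.

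**Figure D3:**
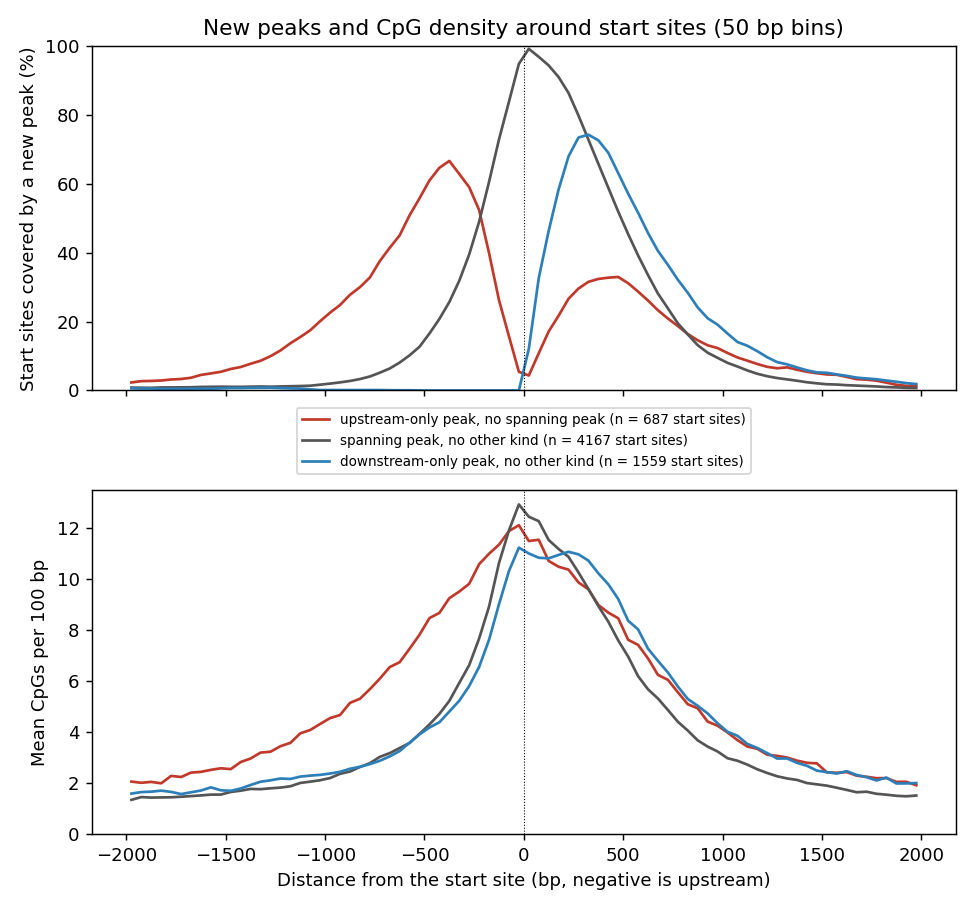
Upper panel, percent of start sites covered by any new peak, and lower panel, mean CpGs per 100 bp, in bins of 50 bp from 2000 bp upstream to 2000 bp downstream, for start sites with an upstream-only and no spanning peak (red), only a spanning peak (grey) and only a downstream-only peak (blue). Coverage of the red group peaks at 66.6% upstream and again at 33.0% downstream. Its CpG density is highest next to the start at 12.1, as are those of the grey group at 12.9 and the blue group at 11.2.

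At many of the 867 start sites the upstream-only peak was not alone. A downstream-only peak was present at 333, or 38.4% (35.2% to 41.7%), where the share over all start sites was 13.4%, and this is 15.1% of the 2201 start sites with such a peak. A spanning peak accompanied it at 180, or 20.8% (18.1% to 23.6%), below the 28.3% of all start sites. Both came together at 18, PFKFB3 among them, and neither at 372, or 42.9%. SCAF11, SULF2, IGF2, PBX3 and EHBP1L1 had a spanning peak without a downstream-only one. The shares over all start sites include the 6094 without an island, of which 3.50% had a downstream-only and 1.71% a spanning peak. With an island, they were 16.0% to 24.4% and 34.4% to 50.5% over the classes of upstream reach. A new peak wholly upstream also limits how far a spanning peak can extend. The part of the island's size in these shares was not tested. At 8 start sites there were 2 upstream-only peaks, among them KMT5B, a histone H4 methyltransferase, and CLK3, a kinase of splicing factors. At CLK3 they had folds of 7.86 and 8.14.

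In 315 genes the start site lay between an upstream-only and a downstream-only peak with no peak over it. The unlisted stretch between the peaks was a median of 438 bp long (155 to 1520 bp) and was 300 bp or less in 94 genes, or 29.8%. Its median density was 12.6 CpGs per 100 bp, that of the upstream peak 10.03 and that of the downstream peak 10.98. In 169 genes, or 53.7% (48.0% to 59.3%), it was at least as dense as both neighbours, and in 85, or 27.0%, less dense than both. The start site was in a CGI in 307 of the 315 genes, or 97.5%.

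On average the sides of the pairs were close in fold, but single pairs differed. The median fold was 6.97 upstream and 7.12 downstream, the upstream peak was the higher one in 145 genes, or 46.0% (40.4% to 51.7%), and the folds within a pair were correlated over the 315 genes of the same library (Spearman rho 0.46, Pearson r 0.43). At FOXK2 the folds were 16.8 and 16.0, with 288 bp and 59 CpGs between the peaks, or 20.5 per 100 bp. At RILPL1 they were 13.6 and 14.7 around 228 bp with 44 CpGs. LIFR had 20.7 upstream and 11.3 downstream, FAM72A 20.5 and 9.93, and PREX1 12.1 and 16.8, so that either side could be the higher one. Peaks are listed only past the authors' threshold, and a stretch without a peak is no measurement of its methylation.

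**Figure D4:**
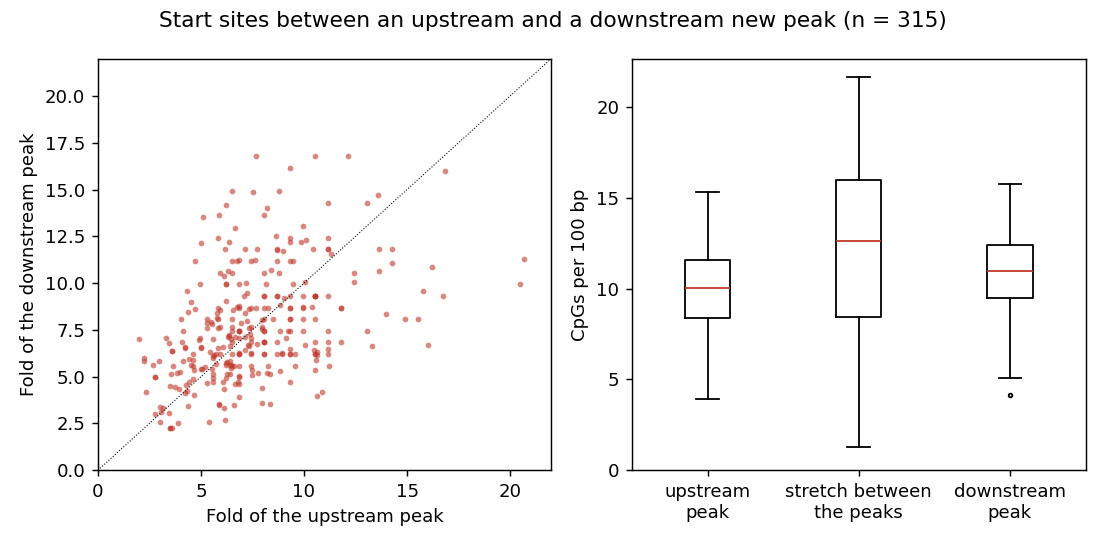
Left, fold of the downstream against that of the upstream peak for the 315 start sites between such peaks (points, dotted line of equal fold). Right, CpGs per 100 bp in the upstream peak, the stretch between the peaks and the downstream peak (box, quartiles with the median in red, whiskers to 1.5 times the quartile range), with medians of 10.03, 12.6 and 10.98.

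Another annotated transcript start lay inside 329 of the 875 peaks, or 37.6% (34.4% to 40.9%), against 45.4% of downstream-only peaks. In 212, or 24.2%, it was a start of the same gene, which was the case in 40.7% downstream. In 116, or 13.3% (11.1% to 15.7%), it was the start of a lncRNA, and 114 of these ran on the opposite strand. Downstream-only peaks held a lncRNA start in 6.14%. Among these upstream peaks were those of LIFR with LIFR-AS1, PBX3 with PBX3-DT and IGF2 with IGF2-AS. Reads without strand or expression do not tell which of the starts is used.

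The summits lay between annotated transcripts in 345 cases, or 39.4%, in introns in 241 (27.5%) and in exons of non-coding genes in 142 (16.2%). In 130, or 14.9%, the summit was in an exon of a coding gene outside its coding part, and in 17, or 1.94%, in a coding exon. In 291 peaks, or 33.3%, there was neither an annotated start in the peak nor a transcript at the summit.

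The gene lists were chosen by symbol and with earlier results of these data known. Homeobox and PAX genes, which encode developmental transcription factors, had an upstream-only peak at 24 of 162 start sites, or 14.8% (9.73% to 21.2%), against 5.27% over all. Of their 77 start sites with a new peak of any kind, this is 31.2%, against 12.6% over all. Their median fold was 4.90 over a median background rate of 3.49, against 6.83 and 1.11 for all upstream-only peaks. The island at their start sites reached a median of 538 bp upstream, where present, against 308 bp over all start sites. PBX3, a HOX cofactor, had the highest fold with 11.2, and MEIS1, another cofactor, had 8.08. At PAX6, the eye development gene, the fold was 4.31 with 26 fragments over a rate of 5.27, and at LHX2, a LIM homeobox gene, 2.89 with 28 over 9.02.

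The SOX, FOX, TBX, GATA and KLF factors had 15 of 101, or 14.9% (8.56% to 23.3%), with islands that reached 882 bp upstream. After FOXK2 came FOXO3, a forkhead factor controlled by insulin signaling, with a fold of 14.3 over 1086 bp. TBX3 had 6.33, SOX11 5.88 and FOXA2, a factor of endoderm development, 4.34. Protein phosphatases followed with 15 of 140, or 10.7% (6.12% to 17.1%), with PPP3CA, the calcineurin catalytic subunit, at 14.3 and DUSP6, a phosphatase of ERK, at 12.4. Ion channel genes had 14 of 151, or 9.27% (5.16% to 15.1%), an interval that includes 5.27%. Among them the fold was 13.0 at KCNJ5 and 11.2 at KCNH2, which encode potassium channels.

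The intervals of the remaining lists also included the 5.27%. Mitogen-activated and cyclin-dependent kinases and their activators had 9 of 106, or 8.49%, with CCNA1, cyclin A1, at a fold of 11.6. The small GTPases and their regulators had 15 of 219, or 6.85%, with ARHGAP35 at 11.8. For the ubiquitin ligases and deubiquitinases the share was 5.81% (19 of 327, RNF13 with 8.69), and for the zinc finger genes 5.43% (28 of 516, ZFP69B with 14.2). Solute carriers had 4.93% (17 of 345, SLCO4C1 with 14.9), ribosomal protein genes 3.51% (4 of 114) and histone genes 1.79% (1 of 56, H4C15 with 7.25). The members of a list lie near each other in part and were not independent.

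**Figure D5:**
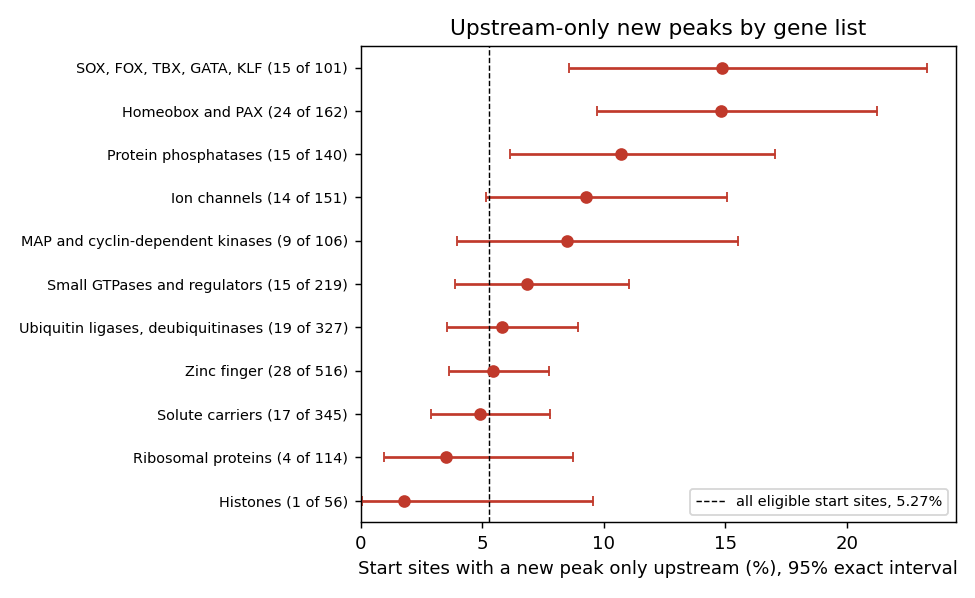
Percent of the start sites of each gene list with an upstream-only new peak (points, with 95% exact binomial intervals), beside the 5.27% of all 16455 start sites (dashed line). The intervals of the first 3 lists, from 14.9% to 10.7%, lie above the line, and those of the other 8 include it.

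Chromosomes differed in the share of start sites with an upstream-only peak. It was lowest on chromosome 19 with 27 of 1232, or 2.19% (1.45% to 3.17%), and highest on chromosome 18 with 21 of 238, or 8.82% (5.55% to 13.2%). Chromosome 9 had 7.92% and chromosome 17 7.16%, and over all start sites the share was 5.27%. The intervals of chromosomes 9, 10, 17, 18 and 19 leave out this value, and those of the others include it. Chromosome 21 was nearly as low as chromosome 19, with 2.44% (0.797% to 5.60%).

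Short motifs were searched on both strands of the 253 bp around each summit, as a description of the sequence. The GC box GGGCGG was in 70.7% of the upstream-only peaks (67.6% to 73.7%) and in 68.6% of all new peaks on chromosomes 1 to 22. CCAAT was in 13.1% against 11.2%, the E box CACGTG in 6.74% against 5.16%, TATAAA in 1.60% against 1.42% and the ETS motif CCGGAAG in 6.06% against 6.24%. The intervals of all these shares include the value of all new peaks, except that of the E box, whose lower limit is 5.17%. The NRF1 core GCATGCGC was in 0.457% against 1.48%, with an upper limit of 1.17%, the YY1 motif AAGATGGCG in 0.343% against 0.616% and the cyclic AMP response element TGACGTCA in 0.457% against 0.584%. Downstream-only peaks held the NRF1 core in 0.578% and spanning peaks in 2.26%, so its low share was found on either side of the start.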

How the data were processed

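The authors deposited, for the wild type library, a list of new peaks in hg19 with 10 columns, and per the labels FastQC, Bowtie2, deepTools and MACS2 were used. Per the methods, Bowtie2 was run with its defaults. Tool versions and the settings of the peak caller are not given in the sources used here. Of the columns, the deposited score is 10 times the −log10 q, and the authors' fold is a ratio to the background. The deposited −log10 values belong to p-values and q-values, and the last column places the summit within the peak. The depth of the library is not in the list. Fragments and background rates were recovered from fold = (k + 1)/(rate + 1) and the Poisson p, to within 4.89e-05 of the listed −log10 p.

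Start sites were those of the Ensembl canonical transcript (for 282 of 20163 genes without one, of the longest transcript) in GENCODE 44 lifted to GRCh37. CpG islands were rebuilt without repeat masking by scoring CpGs with 17 and other bases with -1, and kept at over 200 bp, 50% GC and an observed/expected ratio over 0.6. An overlap of 1 bp counted. The steps were tested on simulated data with Python 3.11.15, numpy 2.4.6 and scipy 1.17.1.

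The members and gene lists were chosen with earlier results of these data known. Genes were named as the 10 highest by fold, the 5 widest, the 5 with most CpGs, the 5 with the highest −log10 q, the 3 closest and the 3 farthest, the highest of each list, and the 5 pairs with the highest summed fold. The values of some genes that this rule names are not reported here. Sequences and further examples were chosen after their values were seen, and sequences on chromosome 8 were passed over. There were no replicates, so no test was made.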

Additional observations from a re-analysis of the deposited data

Results flagged for a closer look

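Chromosome X, which the comparisons did not use, carried 125 new peaks. By the same rule 7 of its 780 start sites had an upstream-only peak, or 0.897% (95% exact binomial interval 0.362% to 1.84%), against 5.27% on chromosomes 1 to 22. It was looked at because it lies outside the main measurement and its number exceeds the 3 counts that a count of 0 allows. The genes are SH3KBP1, BCOR, DDX3X, KDM6A, CITED1, PGK1 and ZNF185, and the highest fold was 8.30 at KDM6A, a histone H3 lysine demethylase. Spanning peaks were found at 27 start sites of X, or 3.46%, and downstream-only peaks at 35, or 4.49%, below the 28.3% and 13.4% of chromosomes 1 to 22. The reason was not tested.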

How the results depend on the processing

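Of 53 alternative values, 26 stayed within the limits used, which were 1.5 times for a count, the 95% interval for a share or a median. The cause of the other 27 was not tested, beyond the choice itself. When peaks under the median fold of the list were dropped, 374 upstream-only peaks remained in the count, 98.1% were in a CGI, the median fold was 9.31, 25.8% of the peaks on either side alone lay upstream, 86.1% had the start in the same island and 44.1% held another transcript start. With a −log10 q of at least 10 the values were 364 peaks, a median fold of 9.31 and 41.8% with another start. With a limit of 500 bp, 98.2% were in a CGI, the near edge was at a median of 209 bp and 91.9% had the start in the island. With 2000 bp these were 95.5%, 328 bp and 83.4%. Without any coding transcript start in the peak, 647 peaks remained, a count within the limit. Their median fold was 6.65, the upstream share 33.0% and 15.6% held another start. Without the requirement on neighbours the upstream share was 26.3%. Where the summit alone set the side, so that peaks over the start also counted, there were 2079 peaks with a median fold of 7.67. Of these, 94.7% had the start in the island and 64.3% held another start. Their median distance of 257 bp is that of the summit, so it is not like the near-edge distance of the main rule. Stricter islands gave 92.1% in a CGI, and an overlap of 50% of the peak gave 94.1%, with 86.1% of starts in the island. No paired analysis was possible because each condition has a single library. The depth of the library limits the list, as the summits rest on a median of 16 fragments and regions under the authors' threshold are not in it.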
